A study of Mus musculus with 6 samples.

Results

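Genes of the mitochondrial route to apoptosis were followed in the inflamed mouse colon. The set holds 10 of the 27202 genes listed in the table, chosen by name: the anti-apoptotic genes Bcl2, Bcl2l1 and Mcl1, the pore-forming effectors Bax and Bak1, the BH3-only genes Bid, Bbc3 and Bcl2l11, and the apoptosome genes Apaf1 and Casp9. All 10 were present, and all 10 had a mean of at least 10 normalized counts and so entered the test of 16246 genes. RNA came from the colons of mice of 2 genotypes. The Nedd4l fl/fl Villin Cre animals have both Nedd4l alleles floxed and express Cre from the Villin promoter in intestinal epithelial cells, and the Nedd4l fl/fl animals from the same litters lack Cre. The floxed line is on a C57BL/6J background. There were 3 libraries of each genotype, labelled cKO1 to cKO3 and WT1 to WT3, and every mouse was 8 to 10 weeks old and had received 2% dextran sulfate sodium (DSS), which damages the lining of the colon, in its water for 7 days. The WT mice therefore carry the floxed alleles and the DSS exposure too, no untreated mice were part of the comparison, and whether a library came from 1 mouse or from pooled mice is not stated, so p-values measure only the spread between these libraries.

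Cells committed to intrinsic apoptosis open pores in the outer mitochondrial membrane. BAX and BAK form those pores, and BCL2, BCL-XL and MCL1 hold them in check. BH3-only proteins sense stress and either block the guardians or activate the effectors, after which cytochrome c leaves the mitochondrion and binds APAF1. APAF1 then assembles into the apoptosome, a wheel-shaped platform that activates caspase-9, which in turn cleaves the executioner caspases. In the intestinal epithelium this route contributes to the removal of damaged crypt cells. Many of the steps are governed by protein interactions and cleavage, which RNA levels do not measure.

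The promoters of Apaf1 and Bcl2 are shown because, of the 10 genes, these had the widest difference in each direction among those that separated all 6 libraries by genotype. The sequences are the 250 bases before the RefSeq start site on GRCm38.p6, read 5′ to 3′ on the minus strand, with capitals marking matches to the GC box, GGGCGG on either strand, so CCGCCC when read on the other.
Apaf1 (chr10:91082744-91082993): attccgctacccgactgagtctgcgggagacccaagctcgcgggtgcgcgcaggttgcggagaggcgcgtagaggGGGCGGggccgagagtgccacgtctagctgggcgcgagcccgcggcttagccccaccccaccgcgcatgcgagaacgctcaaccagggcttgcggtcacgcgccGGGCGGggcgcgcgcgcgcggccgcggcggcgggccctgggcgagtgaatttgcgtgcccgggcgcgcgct
Bcl2 (chr1:106714291-106714540): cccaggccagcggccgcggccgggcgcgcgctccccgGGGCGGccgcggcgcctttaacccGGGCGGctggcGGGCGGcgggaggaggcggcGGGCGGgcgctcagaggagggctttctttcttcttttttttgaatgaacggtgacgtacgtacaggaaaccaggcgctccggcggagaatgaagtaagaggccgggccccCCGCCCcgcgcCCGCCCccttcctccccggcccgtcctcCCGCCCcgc
The motif search used windows of 300 bases that also hold the 50 bases after the start, and RefSeq gave 15 such windows for the 10 genes. The Apaf1 window held 3 GC boxes, of which 2 lie in the stretch shown, and the Bcl2 window held 7, all in the stretch shown. A GC box was present in 11 of the 15 windows and in 35.7% of the 32851 promoter windows of all genes. The 15 windows are not independent, since Bcl2l1 and Bbc3 gave 3 each, and some of those of Bbc3 overlap. In 11 of the 15 the last bases were found in a transcript of the gene in the GENCODE annotation. The windows where they were not, those of Mcl1 and Bbc3, all held a GC box. The Apaf1 and Bcl2 windows were 74.7% and 76.0% G or C, where the median window had 52.7%. The E2F letters TTTNGCGC, searched on both strands, were found in 1 of the 15 windows, which belongs to Bcl2l1, and in 1.38% of all windows, and the p53 half-site was found in 1, which belongs to Bax, and in 8.36% of all windows. Such matches describe the letters only.

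The libraries were of similar depth. In units of each library's smallest value, of which every value was a multiple to within 1e-05, totals ran from 14914367 to 16202235 in cKO and from 15893599 to 17547270 in WT, and the 10 genes had between 73 and 10377 such units per library. Nedd4l, the targeted gene, stood at 476, 942 and 566 normalized counts in cKO1, cKO2 and cKO3 and at 1241, 1271 and 1266 in WT1, WT2 and WT3. Nedd4l was thus highest among the cKO libraries in cKO2, and cKO2 had a higher mean correlation with the WT libraries (Pearson r = 0.977 across genes, which are not independent replicates) than with its own group (0.966). For cKO1 the means were 0.948 with WT and 0.963 with its own group, the lowest of any library, and for cKO3 they were 0.973 and 0.975. The own-group mean of cKO2 therefore includes cKO1, the library least like the rest. Epithelial markers were abundant in every library, with summed levels of 240300 to 274500 in cKO and 258100 to 278800 in WT. Sums over 8 monocyte and macrophage markers were 9396 to 10060 against 5767 to 7957, and sums over 8 fibroblast markers were 23100 to 45760 against 12050 to 19950, with all 8 genes of each list higher in cKO on average. All 12 S phase genes were lower in cKO, with sums of 9495 to 12540 against 15230 to 17370. The sum over 8 neutrophil markers was 9550 in cKO1 and 2970 to 3235 in the other 5 libraries, but Ly6g made up most of it in those 5, at 2200 to 3136. Without Ly6g the other 7 summed to 7064, 150 and 1035 in cKO1, cKO2 and cKO3 and to 140, 99.0 and 128 in WT1, WT2 and WT3, so that cKO1 and cKO3 stood far above WT and cKO2 just above. Of the 7 neutrophil genes tested 6 were higher in cKO, 2 of them at an unadjusted p under 0.05, with a median log2 fold change of 3.36, and Cxcr2, Mpo and Ngp were at 0 in some libraries. The sums overlapped between genotypes for T cell (793 to 964 in cKO, 794 to 1068 in WT), B and plasma cell (40060 to 52490, 32290 to 52450), endothelial (2553 to 4350, 1862 to 2659), smooth muscle (7173 to 12950, 6414 to 23990), enteric neuron and glia (122 to 411, 138 to 306) and mitochondrially encoded genes (413200 to 470200, 432400 to 541000). Within these lists 7 of 8 endothelial genes were higher in cKO (median log2 fold change 0.55) and all 8 smooth muscle genes were lower (-0.35), while 3 of 8 T cell, 6 of 8 B and plasma cell, 2 of 5 tested neuron and glia, 4 of 13 mitochondrially encoded and 3 of 11 epithelial genes were higher. Of 5 sex-linked genes sought only Xist was among the listed genes, at 14080 to 16600 in cKO and 15690 to 20060 in WT. In bulk tissue, fewer cells of a type and less RNA per cell cannot be told apart.

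Divided by exon length, the 10 genes spanned a wide range, and Mcl1 stood at the top in both genotypes. In WT the mean level of Mcl1, which encodes a short-lived guardian, was 2290 ± 389 (SD, n = 3) normalized counts per kilobase. Bak1 followed at 878 ± 60.0, Bax at 321 ± 18.2 and Bcl2l1 at 166 ± 7.14. Apaf1 and Casp9 stood close together at 98.6 ± 4.18 and 90.1 ± 6.70. The lowest levels per kilobase were those of Bid (71.8 ± 14.0), Bbc3 (58.3 ± 11.8), Bcl2 (43.1 ± 2.90) and Bcl2l11 (37.5 ± 2.79). In WT the ranges of Casp9 and Bid overlapped, as did those of Bid and Bbc3, whereas the other neighbours in this order did not overlap. In cKO the order differed at the bottom, where Bcl2l11 (39.4 ± 8.81) stood above Bcl2 (36.4 ± 1.87) with overlapping ranges. Apaf1 reached 164 ± 37.7 per kilobase in cKO, and its range overlapped that of Bcl2l1 (186 ± 3.62) there but not in WT.

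**Figure D1:**
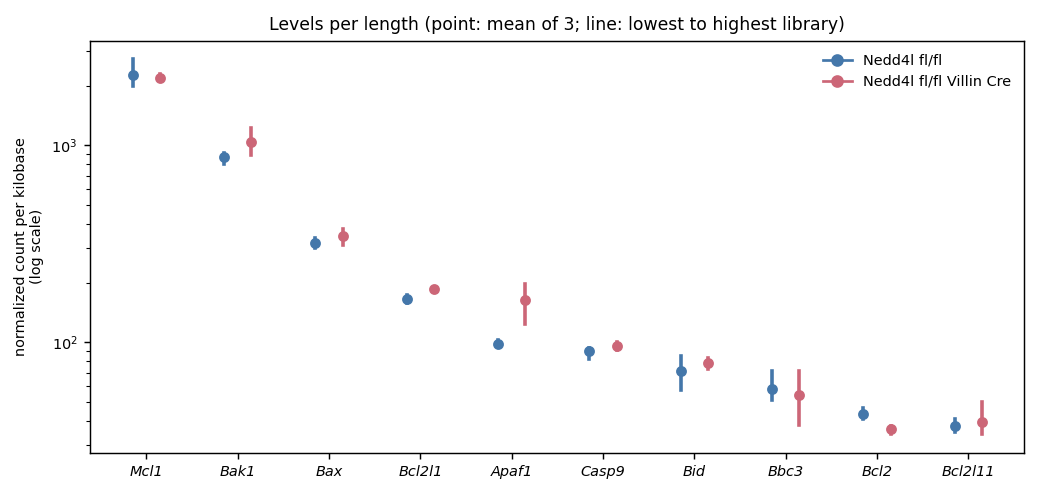
Normalized count per kilobase of exon (log scale) of the 10 genes, ordered by the mean of all 6 libraries; points are means of 3 libraries and lines run from the lowest to the highest library. Mcl1 is highest at 2290 in WT, and Apaf1 shows the widest gap between genotypes.

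The genotype comparison asked whether loss of Nedd4l from the epithelium moved these RNAs during DSS colitis. By limma on log2(value + 1), with p-values adjusted over all 16246 tested genes, 0 of the 10 genes passed an adjusted p of 0.05, where 0.0% of all tested genes did and the smallest adjusted p of any gene was 0.111. At an unadjusted p under 0.05, 1 of the 10 was higher in cKO (Apaf1), against 6.91% of tested genes, and 0 were lower, against 7.08%. Every cKO library lay above every WT library for 2 of the 10 (Apaf1 and Bcl2l1), against 10.5% of tested genes, and below for 1 (Bcl2), against 10.9%. On average 7 of the 10 were higher and 3 lower in cKO, and their median log2 fold change was 0.10, beside 0.0013 over all tested genes. Nedd4l, the targeted gene, did not pass the adjusted threshold either (log2 fold change -0.99; limma, adjusted p = 0.225). Count models were not run, so limma is the only tool behind the calls.

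**Figure D2:**
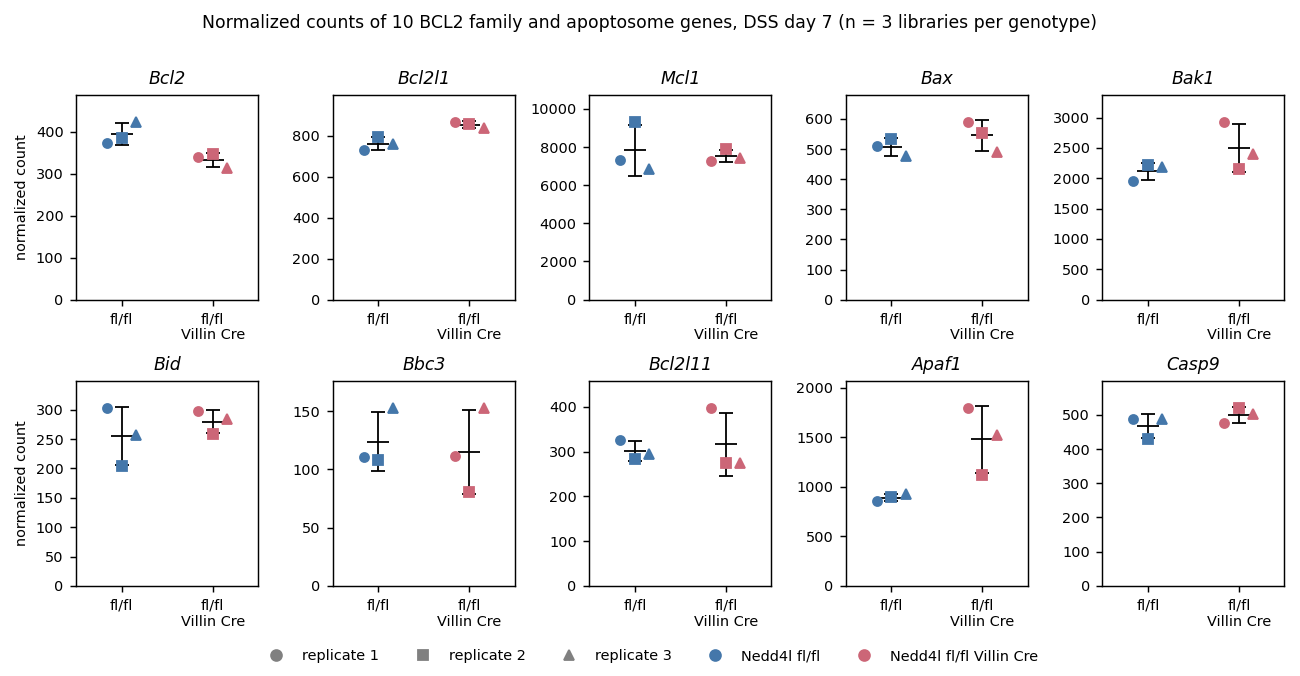
Normalized counts of each gene in each library by genotype, with the vertical axis from 0; horizontal marks are means and bars the SD of 3 libraries. The genotypes separate for Apaf1, Bcl2l1 and Bcl2 and overlap for the other 7 genes.

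Apaf1, the apoptosome scaffold (chromosome 10, 90989311 to 91082770, minus strand), showed the widest difference. It stood at 1796, 1119 and 1517 normalized counts in cKO1, cKO2 and cKO3 and at 851, 892 and 927 in WT1, WT2 and WT3. The 3 cKO libraries were all above the 3 WT libraries, and they were far more spread, with an SD of 0.35 on the log2 scale against 0.06. The log2 fold change was 0.70 (SE 0.16, 95% interval 0.33 to 1.08), a 1.63-fold difference, with an adjusted p of 0.211 by limma. A two-sided exact permutation test of the 6 values gave p = 0.10, the smallest that 3 against 3 allows. That value follows from the separation alone, which 21.4% of tested genes showed in one direction or the other, so it is not further evidence. Without cKO1 the log2 fold change was 0.55 (limma, adjusted p = 0.171). Without cKO2 it was 0.89 (limma, adjusted p = 0.0262), which passed the threshold, as did the fit with limma's array weights. The adjusted p ran from 0.0180 to 0.511 over the 11 alternatives. The cKO libraries ordered the same way for Apaf1 as for the fibroblast sum, with cKO1 highest (45760), cKO3 next (24480) and cKO2 lowest (23100), and as for the neutrophil sum without Ly6g. The neuron and glia sum had this order too (411, 274 and 122), and the epithelial sum had the reverse order (240300, 260200 and 274500 in cKO1, cKO3 and cKO2). The libraries ordered differently for the macrophage sum, which was highest in cKO2 (10060, against 9480 in cKO1 and 9396 in cKO3), and for the S phase sum (12540, 10390 and 9495 in cKO1, cKO2 and cKO3). The T cell, B and plasma cell, endothelial, smooth muscle and mitochondrially encoded sums also followed neither order. An order of 3 libraries is a description only. Nedd4l also had the reverse of the Apaf1 order, at 476, 566 and 942 in cKO1, cKO3 and cKO2. The part of the remaining Nedd4l, and of epithelial, fibroblast, neutrophil, neuron and glia, macrophage and S phase content, in the Apaf1 difference was not tested.

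Casp9, the initiator caspase that APAF1 activates, did not separate. It stood at 475, 521 and 503 normalized counts in cKO and at 488, 428 and 489 in WT, in the order of the library numbers. The cKO1 library lay within the WT range and the other 2 lay above it. The log2 fold change was 0.10 (SE 0.10; limma, adjusted p = 0.683). Exons of Casp9 share 3.62% of their bases with Cela2a and Ctrc on the opposite strand, and whether counting used strand is not given in the sources used here.

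Among the guardians, Bcl2 was lower and Bcl2l1 higher in every cKO library than in any WT library, and neither passed the test. Bcl2, the founding anti-apoptotic gene of the family, stood at 339, 346 and 314 in cKO and at 373, 386 and 424 in WT. The highest cKO library was below the lowest WT library, and the log2 fold change was -0.24 (SE 0.11, 95% interval -0.49 to 0.01; limma, adjusted p = 0.365). Of its exon bases 6.09% are shared with D630008O14Rik on the opposite strand.

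Bcl2l1, which encodes BCL-XL, stood at 869, 857 and 837 in cKO and at 730, 795 and 761 in WT. The cKO libraries lay within a 1.04-fold range, and all were above WT. The log2 fold change was 0.17 (SE 0.08, 95% interval -0.02 to 0.35; limma, adjusted p = 0.390). Leaving out cKO1 or cKO2 gave 0.15 and 0.16 for Bcl2l1, and -0.26 and -0.27 for Bcl2. When any 1 library was left out, the log2 fold change of Bcl2l1 ran from 0.13 (without WT1) to 0.20 (without WT2). That of Bcl2 ran from -0.28 (without WT1) to -0.19 (without WT3). Mcl1 stood at 7244, 7904 and 7446 in cKO and at 7322, 9336 and 6827 in WT, so that all cKO libraries lay within the WT range, and WT2 was the highest library. Its log2 fold change was -0.04 (SE 0.12; limma, adjusted p = 0.890).

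The pore-forming effectors overlapped between genotypes. Bak1 stood at 2934, 2156 and 2399 in cKO and at 1946, 2210 and 2180 in WT. The cKO1 and cKO3 libraries were above WT, and cKO2 was within it. The log2 fold change was 0.23 (SE 0.12, 95% interval -0.05 to 0.51; limma, adjusted p = 0.422). It was 0.11 without cKO1, and 0.33 without cKO2 (limma, adjusted p = 0.201). Exons of Bak1 share 18.2% of their bases with Ggnbp1 on the opposite strand. Bax stood at 591, 554 and 491 in cKO and at 510, 533 and 476 in WT, with cKO3 within the WT range and the other 2 above it. Its log2 fold change was 0.10 (SE 0.11; limma, adjusted p = 0.670), and 12.2% of its exon bases are shared with Gm45808 on the same strand.

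The 3 BH3-only genes also overlapped between genotypes. Bid, which caspase-8 cleaves to link death receptors to mitochondria, stood at 297, 259 and 284 in cKO and at 303, 204 and 258 in WT. The cKO libraries all lay within the WT range, since WT2 was the lowest and WT1 the highest library. The log2 fold change was 0.15 (SE 0.17; limma, adjusted p = 0.697), and 17.7% of the exon bases are shared with Bcl2l13 on the opposite strand. Bbc3, which encodes PUMA, a p53-induced activator, stood at 111, 80.7 and 153 in cKO and at 111, 108 and 153 in WT. It had the widest range within the cKO group, 1.89-fold, and a log2 fold change of -0.14 (SE 0.27; limma, adjusted p = 0.839). Bcl2l11, which encodes BIM, stood at 398, 275 and 275 in cKO and at 326, 282 and 295 in WT, with cKO1 the highest library and the other 2 cKO libraries the lowest. Its log2 fold change of 0.05 (SE 0.17; limma, adjusted p = 0.906) turned to -0.13 without cKO1. The cKO1 library was the highest of all 6 for 5 of the 10 genes, where it was the highest for 24.4% of tested genes.

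**Figure D3:**
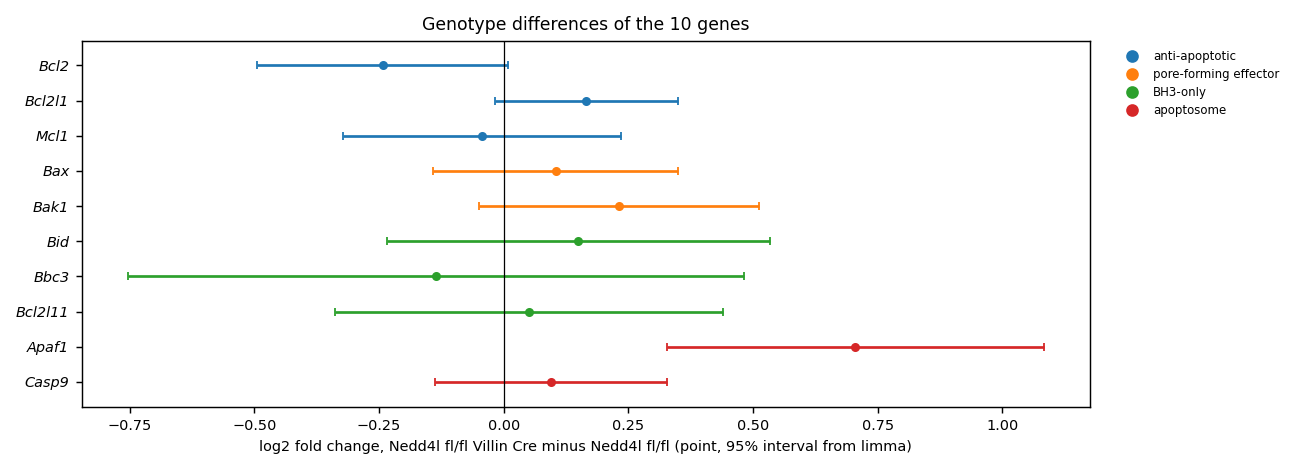
Log2 fold change of each gene between genotypes with its 95% interval from limma, coloured by role. Only the interval of Apaf1, 0.33 to 1.08, lies on one side of 0, and none passed the adjusted threshold.

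Ratios within a library do not depend on its size factor, so 3 pairs with opposed or joint roles were compared. Each log2 difference equals the difference between the log2 fold changes of the genes in the pair, so the ratios are not separate evidence. Bax was set against Bcl2, which was lower in cKO, and not against Bcl2l1, which was higher. The share of other gene pairs that separate was not computed. The ratio of Bax to Bcl2, as normalized counts, was 1.74, 1.60 and 1.57 in cKO1, cKO2 and cKO3 and 1.37, 1.38 and 1.12 in WT1, WT2 and WT3, with no overlap. The log2 difference was 0.35, from 0.71 ± 0.08 in cKO and 0.36 ± 0.17 in WT (SD, n = 3; two-sided exact permutation p = 0.10, adjusted over the 3 ratios 0.15). The ratio of Apaf1 to Casp9 was 3.78, 2.15 and 3.01 in cKO and 1.75, 2.08 and 1.89 in WT, where cKO2 lay just above WT2.

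The log2 difference of Apaf1 to Casp9 was 0.61 (exact permutation p = 0.10, adjusted 0.15), and it was 0.42 without cKO1 and 0.83 without cKO2. The ratio of Bak1 to Mcl1 was 0.405, 0.273 and 0.322 in cKO and 0.266, 0.237 and 0.319 in WT, which overlapped. Its log2 difference was 0.27 (exact permutation p = 0.20, adjusted 0.20), and it was 0.12 without cKO1 and 0.41 without cKO2. No ratio could pass 0.05, since 0.10 is the smallest p that this design allows. The Bax to Bcl2 difference stayed between 0.25 and 0.40 when any 1 library was left out.

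**Figure D4:**
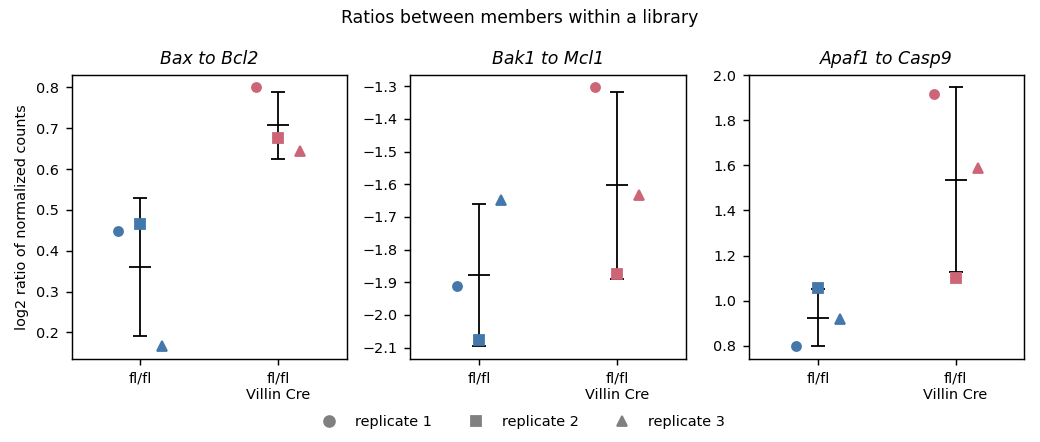
Log2 ratio of normalized counts of 2 genes in the same library, by genotype; marks and bars are the mean and SD of 3 libraries, and each panel has its own axis, which does not start at 0. The genotypes separate for Bax to Bcl2 and for Apaf1 to Casp9, and overlap for Bak1 to Mcl1.

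The rest of the pathway was read from a list of 51 further genes, of which 48 were tested; Bcl2l10, Hrk and Bcl2l15 were below the filter. In this list 29 genes were higher and 19 lower in cKO, 0 passed the adjusted threshold by limma, and at an unadjusted p under 0.05 there were 9 higher and 4 lower, against 6.91% and 7.08% of tested genes. The median log2 fold change was 0.07. Every cKO library was above every WT library for 10 and below for 5, that is for 31.3% of the list against 21.4% of tested genes. The list was chosen with earlier results of these data known, so these shares are descriptions only.

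Among the other guardians, Bcl2a1a, Bcl2a1b and Bcl2a1d, which encode A1 and are known from blood cells, had log2 fold changes of 0.99, 1.01 and 0.88 (limma, adjusted p = 0.343, 0.276 and 0.284). They are near-identical copies whose reads may have been split between them, so their separate values are uncertain. Bcl2a1d stood at 70.9, 49.7 and 60.9 normalized counts in cKO and at 41.5, 24.3 and 33.0 in WT, without overlap. The monocyte and macrophage sum and the neutrophil sum without Ly6g were also higher in every cKO library, and their part in the Bcl2a1 difference was not tested. Without cKO1, the library with the highest neutrophil sum, the 3 log2 fold changes were 0.76, 0.92 and 0.76. Bnip3 and Bnip3l, mitochondrial proteins that also mark mitochondria for autophagy, had log2 fold changes of 0.74 and 0.29 (limma, adjusted p = 0.307 and 0.310).

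Downstream, Casp6, an effector caspase, stood at 400, 420 and 443 normalized counts in cKO and at 338, 325 and 377 in WT. All cKO libraries were above WT, and the log2 fold change was 0.28 (limma, adjusted p = 0.331). Of the proteins that leave the mitochondrion, Endog had the smallest p, with a log2 fold change of -0.34 (limma, adjusted p = 0.398), and of the inhibitors of apoptosis Xiap, which blocks caspase-9, had -0.19 (limma, adjusted p = 0.596). Of the remaining BH3-only genes Bad had 0.17 (limma, adjusted p = 0.460).

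Upstream, Fas, the death receptor that can feed into Bid, stood at 329, 220 and 257 in cKO and at 165, 132 and 210 in WT. All cKO libraries were above WT, and the log2 fold change was 0.67 (limma, adjusted p = 0.286). Its adaptor Fadd was lower in every cKO library, with a log2 fold change of -0.28 (limma, adjusted p = 0.331). Of 5 transcription factors known to act on these genes, 2 were lower at an unadjusted p under 0.05, against 7.08% of tested genes.

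E2f1, which drives S phase genes and can induce Apaf1, stood at 177, 199 and 143 in cKO and at 271, 330 and 323 in WT, with a log2 fold change of -0.83 (limma, adjusted p = 0.169). Trp53, which encodes p53, a known inducer of Bbc3, Bax and Apaf1, had -0.33 (limma, adjusted p = 0.263). Both were lower in every cKO library, as was the S phase sum, and the part of any of these in the values of Apaf1, Bbc3 or Bax was not tested. Of the binding partners and ligases, Aven, an inhibitor that binds APAF1 and BCL-XL, had -0.35 (limma, adjusted p = 0.354), and Usp9x, a deubiquitinase that stabilises MCL1, had 0.36 (limma, adjusted p = 0.278).

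**Figure D5:**
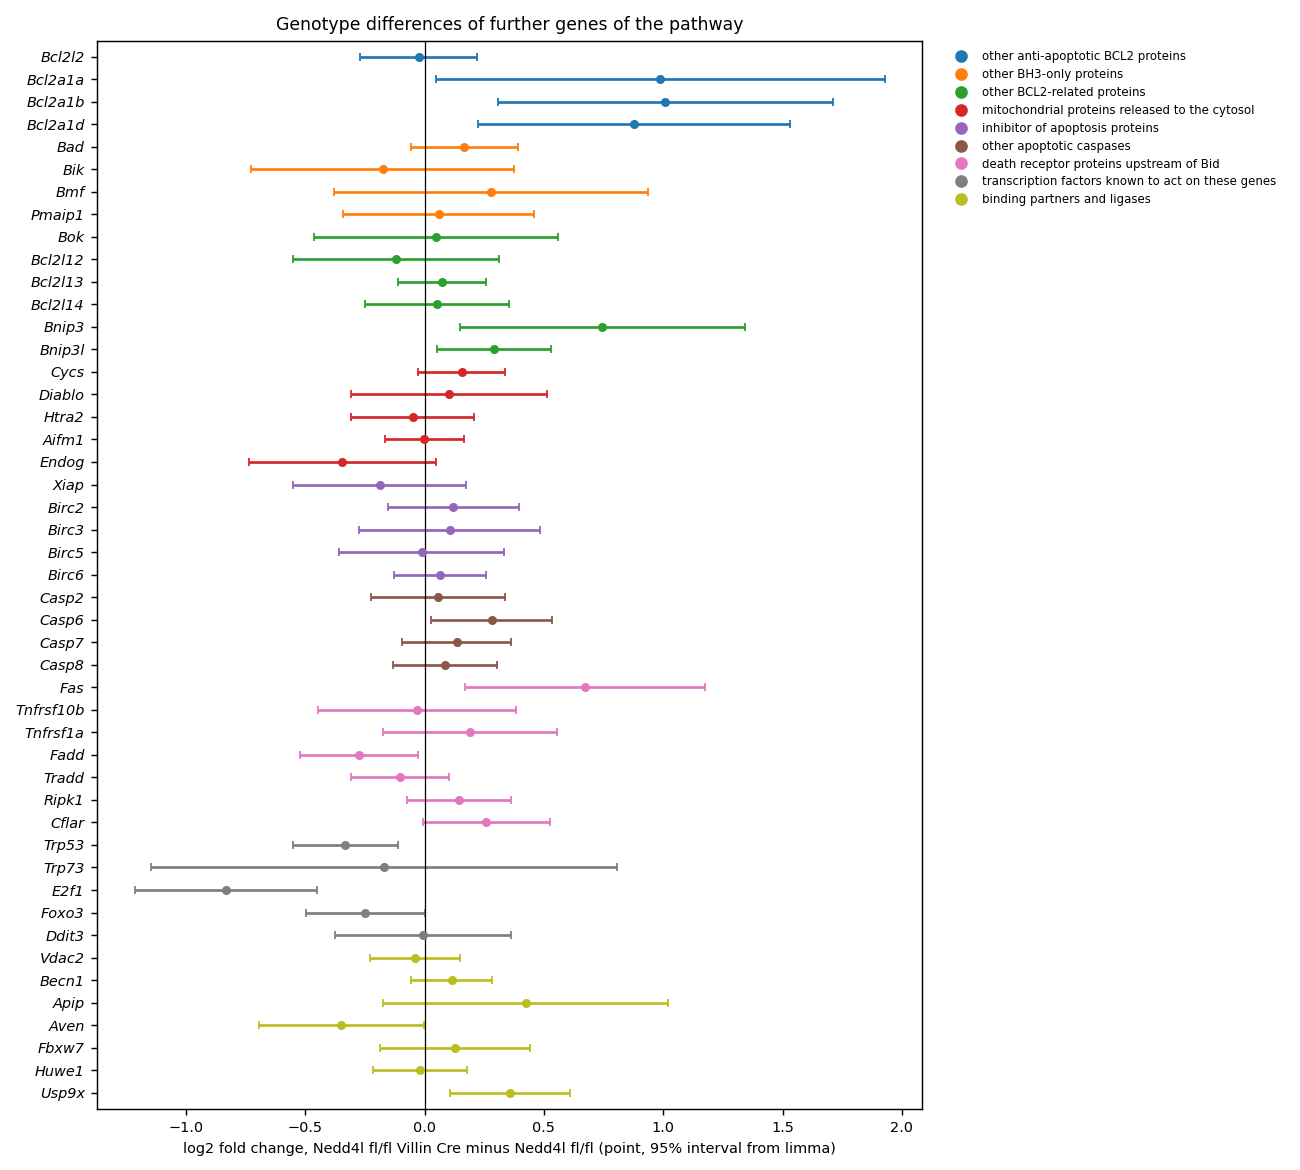
Log2 fold change between genotypes with its 95% interval from limma for genes of the wider pathway, coloured by role. The Bcl2a1 genes lie farthest to the right, near 1.01, and E2f1 farthest to the left at -0.83.

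The gene with the most similar profile to each member was sought among 10782 protein-coding genes by Pearson correlation of log2 values over the 6 libraries, which share genotype, so the values are descriptions only. For Apaf1 it was Tmsb10 (r = 0.997), and 154 genes had r above 0.95, the most for any of the 10. For Bcl2 it was Fbxw5 (0.996), for Bcl2l1 Map4 (0.995), for Mcl1 Misp (0.989), for Bax Twistnb (0.990) and for Bak1 Rnh1 (0.994). For Bbc3 it was Rara (0.979), for Bcl2l11 Ascc3 (0.980) and for Casp9 Wdr19 (0.992). None of the 10 was the closest gene of another.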

How the data were processed

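RNA from colonic tissue of 6 libraries was sequenced, and 1 table of genes by libraries was used. The authors deposited normalized counts, a signal in which the count of each gene is divided by 1 size factor per library, and values were multiples, to within 1e-05, of a step of 0.900 to 1.11 per library; how many reads a step stands for is not stated. A column of gene lengths was also deposited by the authors and served for levels per kilobase. Columns with the authors' genotype means, fold changes and p-values were not used. Per the submitters' processing notes, HISAT2 2.0.5 and featureCounts 1.5.0-p3 were run, and a human build is named there; coordinates in the table matched GENCODE mouse release 21 on GRCm38 for 97.3% of 27164 genes and are given as listed. Use of strand and of multi-mapped reads is not given in the sources used here.

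The 16246 genes that averaged 10 or more normalized counts over the 6 libraries were tested on the log2(value + 1) scale, for which lmFit and eBayes (trend, robust) of limma 3.58.1 in R 4.3.3 were run on genotype without a block, with Benjamini-Hochberg adjustment over all tested genes and a threshold of 0.05. The code was tested on simulated data. Permutation tests used scipy 1.17.1, and figures matplotlib 3.10.9 under Python 3.11.15. Promoter sequences came from RefSeq. The 10 genes and the wider lists were chosen with earlier results of these data known. Named were all 10 genes, the targeted gene, for each role of the wider list the genes with an unadjusted p under 0.05 or else the one with the smallest p, and the gene most correlated with each of the 10 among protein-coding genes with a mean of at least 100 normalized counts; Cxcr2, Ly6g, Mpo, Ngp, Xist, genes that overlap members and those below the filter were named outside this rule, and some genes that the rule names are not reported here. Alternatives changed the pseudocount, filter, normalization, library weights and block, and left out each library. At 3 libraries per group their number limits the precision.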

Additional observations from a re-analysis of the deposited data

How the results depend on the processing

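Of the fits of the 10 genes under 11 alternatives, 101 of 110 kept direction and side of the threshold, 2 passed it and 7 changed sign, none of the latter past the threshold. Genes called lower and higher were 0 and 0 as reported, 23 and 7 with no filter on low values, and 369 and 262 with limma's array weights, which gave cKO3 4.39 and the others 0.414 to 1.34. Leaving out 1 library gave 0 to 52 lower and 0 to 70 higher, with 22 and 2 without cKO1, 52 and 70 without cKO2, and 0 and 0 without any other library. Of the 10 genes, 1 was called with array weights and 0 to 1 when a library was left out, in both cases Apaf1 (adjusted p = 0.0180 with array weights, log2 fold change 0.73). An unadjusted p under 0.05 was reached by 2 with array weights, where Bcl2 joined (-0.32). In that fit 2122 of the 16246 tested genes were lower and 2084 higher at that level. It was reached by 1 to 2 when a library was left out, with 2 only without cKO2, where Bak1 joined (0.33). Without cKO2, 1424 of all tested genes were lower and 1451 higher at that level. Signs changed for Mcl1 (0.090) and Bid (-0.00051) without WT2, for Bbc3 with array weights (0.14), without cKO2 (0.092) and without WT3 (0.024), and for Bcl2l11 with array weights (-0.084) and without cKO1 (-0.13). When any 1 library was left out, the log2 fold change ran from -0.14 to 0.090 for Mcl1, from -0.00051 to 0.28 for Bid, from -0.36 to 0.092 for Bbc3 and from -0.13 to 0.14 for Bcl2l11. The cause of the sign changes was not tested. Of the named pathway genes, Bnip3, Trp53, E2f1 and Usp9x passed with array weights (adjusted p = 0.0455, 0.0268, 0.0164 and 0.0467), and the other 172 of 176 fits kept their side. The ratios kept their direction in 21 of 21.

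Deviations from the genotype mean gave r = -0.029, -0.090 and -0.056 for samples with the same number, and -0.024 to 0.064 for those with different numbers. Centring over 3 libraries ties these values to each other, so they cannot decide whether the numbers pair the samples. The labels do not state a pairing. With the replicate block, 0 genes were called lower and 0 higher, and Apaf1 had a log2 fold change of 0.70 (limma, adjusted p = 0.238). The planned count models, edgeR and DESeq2, were not run, since it was not established for every library that a step is 1 read. With 3 libraries per genotype the exact tests could not go below 0.10.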
